A study of Homo sapiens with 7 samples.

Results

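The genes of the type I interferon receptor and of the JAK-STAT pathway behind it were described in HEK-293 cells kept in acidified medium or treated with an inhibitor of SR protein kinases. The 9 genes were listed by symbol, with earlier results of these data known. They were the receptor chains IFNAR1 and IFNAR2, the kinases JAK1 and TYK2, and the transcription factors STAT2, IRF9 and IRF1. The feedback inhibitors SOCS1 and USP18 completed the set. All 9 were found by Ensembl identifier among the 19978 genes of the deposited table, and all 9 passed the filter on low counts, which left 14863 genes for testing. HEK-293 is a human line grown from embryonic kidney. Poly(A)-selected RNA came from 7 cultures, all kept for 48 h with the same volume of the solvent DMSO. The control cultures (n = 2) were in DMEM of pH 7.4, the acidosis cultures (n = 3) in DMEM brought to pH 6.6 with HCl, and the SRPIN340 cultures (n = 2) in DMEM of pH 7.4 with 10 µM SRPIN340, which blocks kinases that phosphorylate SR-rich splicing factors. The labels give no genetic difference between the groups, and neither they nor the methods mention added interferon.

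Type I interferons bind a receptor made of IFNAR1 and IFNAR2, whose inner parts carry the kinases TYK2 and JAK1. The kinases phosphorylate STAT proteins, among them STAT2, which joins IRF9 in ISGF3, the factor that switches on interferon-stimulated genes through the interferon-stimulated response element (ISRE). Several parts of the pathway, among them STAT2, IRF9, IRF1, SOCS1 and USP18, are themselves interferon-stimulated genes. SOCS1 blocks the kinases, and USP18 holds JAK1 off the IFNAR2 chain besides cutting the modifier ISG15 from proteins. Type II interferon acts mainly through a second element, the gamma-activated sequence (GAS).

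Library totals ranged from 13615816 to 24110460 counts, with the 2 smallest libraries in acidosis. In control and SRPIN340, 15.15% to 15.37% of a library came from its 100 most abundant genes, and in acidosis 24.06% to 24.81%. Levels are given as CPM, counts scaled to a common library size by TMM (trimmed mean of M values). This scaling sets the typical gene near no change, with a median log2 fold change over all tested genes of -0.0518 in acidosis. With libraries scaled by total count only, that median was -0.626, so every acidosis change below is relative to the typical gene. Such data hold neither the number of cells nor the RNA per cell, so a change in either cannot be read from them. Of 6 genes that mark HEK-293 cells (VIM, NEFL, NEFM, INA, PAX2 and LHX1), all 6 passed the filter, but their levels were not stable in acidosis. VIM and NEFM were called higher (log2 fold changes of 1.65 and 1.65), NEFL passed higher (0.66, or 0.09 with total-count scaling), PAX2 was called lower (-1.93) and INA passed lower (-0.70). With SRPIN340 1 of the 6 passed, NEFM (log2 fold change 0.55). Of 6 leukocyte markers, CD3E was at 0 in all samples, 4 were tested and all 4 passed higher in acidosis, 3 of them called (PTPRC, CD14 and ITGAM, with group means of at most 1.92 CPM in control and acidosis) and CD68 with a log2 fold change of 0.67, and with total-count scaling 0 were called. The summed level of the list was 8.75 to 8.90 CPM in control, 9.38 to 11.5 CPM with SRPIN340 and 14.6 to 18.6 CPM in acidosis. Endothelial markers summed to at most 2.32 CPM. Fibroblast markers summed to 41.8 to 42.0 CPM in control, 45.5 to 55.0 CPM with SRPIN340 and 82.0 to 94.1 CPM in acidosis. In acidosis the fibroblast markers COL1A1 and LUM were called higher (log2 fold changes 1.02 and 1.66) and COL3A1 passed lower (-0.97). The endothelial marker VWF was called higher (2.89) at a mean of 0.912 CPM. With total-count scaling 1 fibroblast marker was called higher and 1 lower, and 0 endothelial markers were called. The part of these marker levels in the results was not tested.

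Promoters of 7 of the 9 genes were found in the RefSeq table (GRCh38.p14), each running from 250 bases before the start of transcription to 50 after it. USP18 and IFNAR2 had no entry. The promoters were searched on both strands for the core of the ISRE, GAAANNGAA, and for the GAS, TTCNNNGAA, which reads the same on either strand. The ISRE core was in 8.11% of all 35116 promoters and the GAS in 7.66%. One promoter held the first motif (SOCS1) and 2 held the second (IRF9 and IRF1). No match was found in the windows of IFNAR1, JAK1, TYK2 and STAT2. A match is a description of the letters only, and the matches of the 3 promoters do not overlap another motif of the search. The stretches below, from 160 to 41 bases before the start, are shown because they hold these matches, which are in capitals. None of them lies in an exon of its gene in GENCODE release 44, though that of IRF1 falls inside the span of the gene, which has transcripts starting further upstream. They are IRF9 on chr14:24161105-24161224 (plus strand), IRF1 on chr5:132490814-132490933 (minus strand) and SOCS1 on chr16:11256245-11256364 (minus strand), each written 5′ to 3′ on the strand of the gene.
IRF9: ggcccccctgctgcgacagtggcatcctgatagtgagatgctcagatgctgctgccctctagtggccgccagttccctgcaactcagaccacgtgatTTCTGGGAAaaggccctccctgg
IRF1: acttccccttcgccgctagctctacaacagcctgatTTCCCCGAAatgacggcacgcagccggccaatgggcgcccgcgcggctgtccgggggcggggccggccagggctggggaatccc
SOCS1: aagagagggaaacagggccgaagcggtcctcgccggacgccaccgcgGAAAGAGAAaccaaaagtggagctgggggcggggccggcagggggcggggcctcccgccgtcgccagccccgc
The GAS letters begin 63 bases before the start of IRF9 and 124 bases before that of IRF1, and the ISRE core begins 113 bases before the start of SOCS1.

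Acidosis against control asks how the pathway's own genes stood after prolonged mild acidification. STAT2 and USP18 were lower in acidosis, to about 0.407 and 0.297 of the control level, and IRF9 was lower by less, to 0.542. SOCS1 was higher from a very low level. The receptor and kinase genes stayed within 0.861 to 1.22 of control. A gene was called when its adjusted p was under 0.05 and its absolute log2 fold change over 1, where the p came from the quasi-likelihood test of edgeR and was adjusted by Benjamini-Hochberg over all tested genes. By this rule 2 of the 9 genes were called lower (STAT2 and USP18), against 19.1% of all tested genes, and 1 was called higher (SOCS1), against 14.4%. With the adjusted p alone (a gene that passed), 3 passed lower and 2 higher, against 34.2% and 32.5% of all genes, and a share of 9 genes this near the background is no result about them. The median log2 fold change of the 9 genes was -0.139. With total-count scaling, 3 were called lower (STAT2, IRF9 and USP18) and 0 higher.

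SRPIN340 against control asks whether the same genes moved when SR protein kinases were inhibited at normal pH. IRF9 fell to 0.457 of control and was the 1 gene of the 9 called lower, against 0.195% of all tested genes. That background is 29 genes, and it was 8 genes in the fit without SRPIN340 replicate 1, where IRF9 was not called. With no fold limit USP18 also passed, so that 2 of the 9 passed lower, against 1.53% of all genes. No gene of the 9 was called higher or passed higher by edgeR's quasi-likelihood test, where the background was 0.128% and 0.767%. None of the 9 was higher at an unadjusted p under 0.05, and DESeq2 called 0. The median log2 fold change of the 9 genes was -0.0963. The comparisons with control share the 2 control samples, so their values are set side by side and no correlation between them is given.

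**Figure D1:**
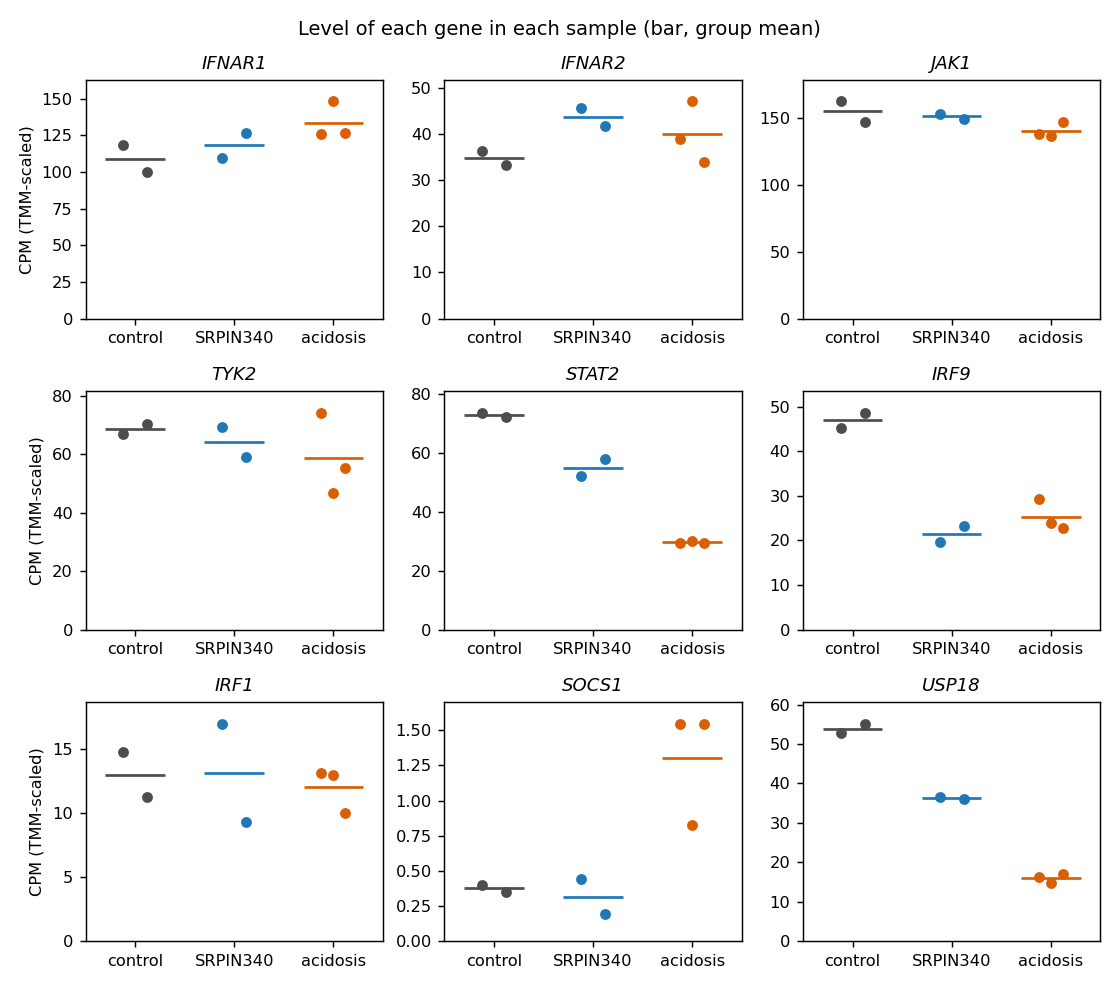
Level of each of the 9 genes in each sample, in CPM on a linear axis from 0, with 1 point per sample and a bar at the group mean (control n = 2, SRPIN340 n = 2, acidosis n = 3). STAT2 and USP18 step down from control through SRPIN340 to acidosis with no overlap, IRF9 is low in both treatments, and SOCS1 lies below 2 CPM throughout.

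The chains of the receptor lay close to their control levels. IFNAR1 (ENSG00000142166.15, chromosome 21 of GRCh38, 33324387 to 33359864), the chain that carries TYK2, was at 118 and 100 CPM in the control samples, 110 and 127 CPM with SRPIN340, and 126, 148 and 126 CPM in acidosis. Every acidosis sample lay above both control samples, while the SRPIN340 samples overlapped with each of the other groups. The log2 fold change in acidosis was 0.29 (SE 0.109, edgeR adjusted p = 0.0381). This did not pass under 6 of 14 alternatives, among them the fits without control replicate 2 or acidosis replicate 2 (edgeR adjusted p = 0.321 and 0.0981), and with total-count scaling the direction turned (log2 fold change -0.282, edgeR adjusted p = 0.0426). Over all alternatives the adjusted p ranged from 0.0198 to 0.321.

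IFNAR2 (ENSG00000159110.22, chromosome 21, 33205282 to 33265675) is the signalling chain and the docking site of JAK1 and USP18. It was at 36.4 and 33.2 CPM in control, 45.7 and 41.6 CPM with SRPIN340, and 38.8, 47.0 and 33.9 CPM in acidosis. The SRPIN340 samples lay above the control samples, with a log2 fold change of 0.33 whose 95% interval ran from -0.0035 to 0.66 (edgeR adjusted p = 0.288). In acidosis the groups overlapped (log2 fold change 0.20, edgeR adjusted p = 0.232), and total-count scaling turned the value to -0.376. IFNAR2 shares 14.7% of its exon bases with the readthrough gene IFNAR2-IL10RB, so reads may be split between them. That readthrough gene has its own row of 31.2 to 195 counts per sample, with an acidosis log2 fold change of -0.071.

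The kinases did not pass the test in either comparison with control in the main fit, of all 7 samples with TMM scaling. JAK1 (ENSG00000162434.14, chromosome 1, 64833223 to 65067754) was at 163 and 147 CPM in control, 153 and 149 CPM with SRPIN340, and 138, 137 and 147 CPM in acidosis. Its acidosis samples lay just below the control samples, and the log2 fold change of -0.14 had a 95% interval from -0.30 to 0.024 (edgeR adjusted p = 0.117). It passed with total-count scaling (log2 fold change -0.714, edgeR adjusted p = 9.74e-06) and with a mean of at least 5 CPM (-0.184, edgeR adjusted p = 0.0386). It was -0.073 without control replicate 1 and -0.227 without control replicate 2, and the adjusted p ranged up to 0.505 over all alternatives. With SRPIN340 the difference was -0.034 on the log2 scale, with an interval from -0.21 to 0.14, the narrowest of the 9 genes.

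TYK2 (ENSG00000105397.15, chromosome 19, 10350533 to 10380608) was at 66.8 and 70.5 CPM in control, 69.2 and 59.3 CPM with SRPIN340, and 74.3, 46.9 and 55.4 CPM in acidosis. Acidosis replicate 1 lay above both control samples and the other two acidosis samples below them, so the groups overlapped (log2 fold change -0.22, 95% interval -0.59 to 0.16, edgeR adjusted p = 0.275). Without acidosis replicate 1 the fall passed (log2 fold change -0.423, edgeR adjusted p = 0.0132). The fall also passed with total-count scaling (log2 fold change -0.791, edgeR adjusted p = 0.00165). Over all alternatives the adjusted p for TYK2 in acidosis ranged from 0.00165 to 0.658.

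STAT2 (ENSG00000170581.15, chromosome 12, 56341597 to 56360203), the STAT that binds IRF9 in ISGF3, was at 73.8 and 72.2 CPM in control, 52.3 and 58.0 CPM with SRPIN340, and 29.6, 30.0 and 29.7 CPM in acidosis. The 3 groups did not overlap, and the acidosis samples differed among themselves by less than 1 CPM. The fall in acidosis was -1.30 on the log2 scale (SE 0.0888, edgeR adjusted p = 1.11e-06), and 14.7% of tested genes had a lower value. It passed under all 14 alternatives, with log2 fold changes between -1.87 and -1.271. With SRPIN340 the log2 fold change was -0.41 and missed the threshold (95% interval -0.62 to -0.19, edgeR adjusted p = 0.0619), while DESeq2 gave an adjusted p of 0.0114 and the alternatives ranged from 0.0114 to 0.408. Set directly against SRPIN340, acidosis was lower by a log2 fold change of -0.89 (edgeR adjusted p = 1.43e-05).

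IRF9 (ENSG00000213928.10, chromosome 14, 24161234 to 24168043), the DNA-binding part of ISGF3, was at 45.3 and 48.7 CPM in control, 19.6 and 23.3 CPM with SRPIN340, and 29.3, 24.0 and 22.7 CPM in acidosis. Every treated sample lay below both control samples, and the treated groups overlapped with each other. With SRPIN340 the log2 fold change was -1.13 (SE 0.149, edgeR adjusted p = 0.00831), and 1.41% of tested genes had a lower value. Without control replicate 2, SRPIN340 replicate 1 or SRPIN340 replicate 2 this fall missed the threshold (edgeR adjusted p = 0.0708, 0.125 and 0.0633), and the log2 fold change stayed between -1.257 and -1.01 over all alternatives. In acidosis it was -0.88 (SE 0.135, edgeR adjusted p = 0.000263), below the fold limit of a call, and 23.4% of tested genes had a lower value.

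Acidosis and SRPIN340 did not differ detectably for IRF9, with a log2 difference of 0.24 and a 95% interval from -0.071 to 0.56 (edgeR adjusted p = 0.149). With total-count scaling the direction turned and passed (log2 fold change -0.37, edgeR adjusted p = 0.036). IRF9 shares 23.86% of its exon bases with a readthrough gene that starts upstream, in RNF31. That gene has its own row of 23.4 to 210 counts per sample, with a log2 fold change of -1.29 in acidosis. The effect of reads split between these genes was not tested.

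IRF1 (ENSG00000125347.15, chromosome 5, 132440440 to 132508719), a factor induced by type II interferon and by other signals, was at 14.7 and 11.2 CPM in control, 17.0 and 9.30 CPM with SRPIN340, and 13.1, 12.9 and 9.97 CPM in acidosis. All 3 groups overlapped, and the SRPIN340 samples were the highest and the lowest of all 7. The log2 fold changes were -0.11 in acidosis (95% interval -0.69 to 0.47, edgeR adjusted p = 0.726) and 0.017 with SRPIN340 (95% interval -0.60 to 0.63, adjusted p = 0.986). With total-count scaling the acidosis value was -0.682 and passed (edgeR adjusted p = 0.0373), near the shift of the typical gene. In GENCODE release 44, 22.87% of the exon bases of IRF1 lie under the antisense gene IRF1-AS1, and the strand setting of the counting was not given in the sources used here.

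USP18 (ENSG00000184979.11, chromosome 22, 18150118 to 18177397) was at 52.7 and 55.2 CPM in control, 36.6 and 36.0 CPM with SRPIN340, and 16.3, 14.7 and 16.9 CPM in acidosis. As for STAT2, the 3 groups did not overlap and the samples of each lay close together. In acidosis USP18 had the deepest fall of the 9 genes, -1.75 on the log2 scale (SE 0.104, edgeR adjusted p = 4.33e-07), and 8.41% of tested genes had a lower value. The fall passed under all 14 alternatives, with log2 fold changes between -2.328 and -1.696. With SRPIN340 the log2 fold change was -0.57 (SE 0.109, edgeR adjusted p = 0.0354), and it missed the threshold when any 1 control or SRPIN340 sample was left out (edgeR adjusted p = 0.131, 0.193, 0.253 and 0.294). Set against SRPIN340, acidosis was lower by a log2 fold change of -1.18 (edgeR adjusted p = 6.15e-06). USP18 has a near-identical copy, USP41, which was looked up by Ensembl identifier and had no row in the deposited counts. Reads may be assigned to either copy, so the counts of USP18 are uncertain to that extent.

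SOCS1 (ENSG00000185338.7, chromosome 16, 11254417 to 11256204) rested on few reads. It had 10.5 counts in each control sample, 11.7 and 5.34 counts with SRPIN340, and 26.5, 9.14 and 18.1 counts in acidosis. As CPM this is 0.396 and 0.351 in control, 0.442 and 0.190 with SRPIN340, and 1.54, 0.826 and 1.55 in acidosis, so each acidosis sample lay above every other sample. The log2 fold change in acidosis was 1.80 with a 95% interval from 0.52 to 3.09 (edgeR adjusted p = 0.0187). It missed the threshold with total-count scaling and without either control sample (edgeR adjusted p = 0.0758, 0.0906 and 0.115). With SRPIN340 it was -0.23 with an interval from -1.68 to 1.21 (adjusted p = 0.899), so no difference was detectable at this depth.

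**Figure D2:**
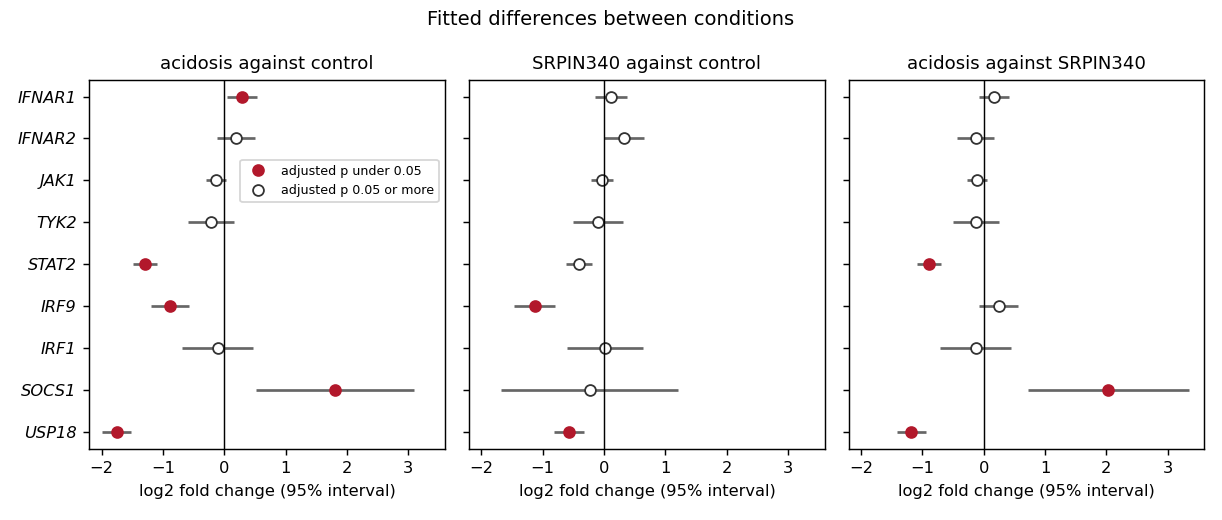
Fitted log2 fold changes of the 9 genes with 95% intervals in the 3 comparisons, filled where the adjusted p was under 0.05. STAT2 and USP18 lie below 0 in acidosis against either other condition, IRF9 lies below 0 in both comparisons with control, and the interval of SOCS1 is the widest.

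Acidosis set directly against SRPIN340 called 1 of the 9 genes lower (USP18), against 19.7% of all tested genes, and 1 higher (SOCS1), against 14.9%. STAT2 passed lower without reaching the fold limit, and the other six did not pass. For SOCS1 the log2 fold change was 2.04 (edgeR adjusted p = 0.0114), and without SRPIN340 replicate 2 it was 1.554 (edgeR adjusted p = 0.117). With total-count scaling 2 genes were called lower (STAT2 and USP18).

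A ratio between genes of the same sample does not depend on how libraries are scaled. The 5 ratios, computed from the deposited counts, were chosen after the levels had been seen. IRF9 to STAT2, the partners in ISGF3, was 0.613 and 0.674 in control, 0.376 and 0.402 with SRPIN340, and 0.992, 0.797 and 0.767 in acidosis. This ratio was thus lowest with SRPIN340 and highest in acidosis, with no overlap, and its mean log2 differed from control by -0.726 and 0.397. STAT2 to JAK1 was 0.454 and 0.490 in control, 0.341 and 0.388 with SRPIN340, and 0.214, 0.220 and 0.201 in acidosis, which orders the groups without overlap. USP18 to STAT2 was 0.714 and 0.764 in control, 0.701 and 0.621 with SRPIN340, and 0.552, 0.488 and 0.571 in acidosis, which was lowest in acidosis, again without overlap. The ratios within the receptor and within the kinases overlapped with control in both treatments: IFNAR2 to IFNAR1 ranged from 0.268 to 0.416 and TYK2 to JAK1 from 0.343 to 0.537 over all samples. The exact two-sided permutation test cannot go below p = 0.2 with 3 samples against 2 and p = 0.333 with 2 against 2, so no ratio could pass in the 15 comparisons made.

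**Figure D3:**
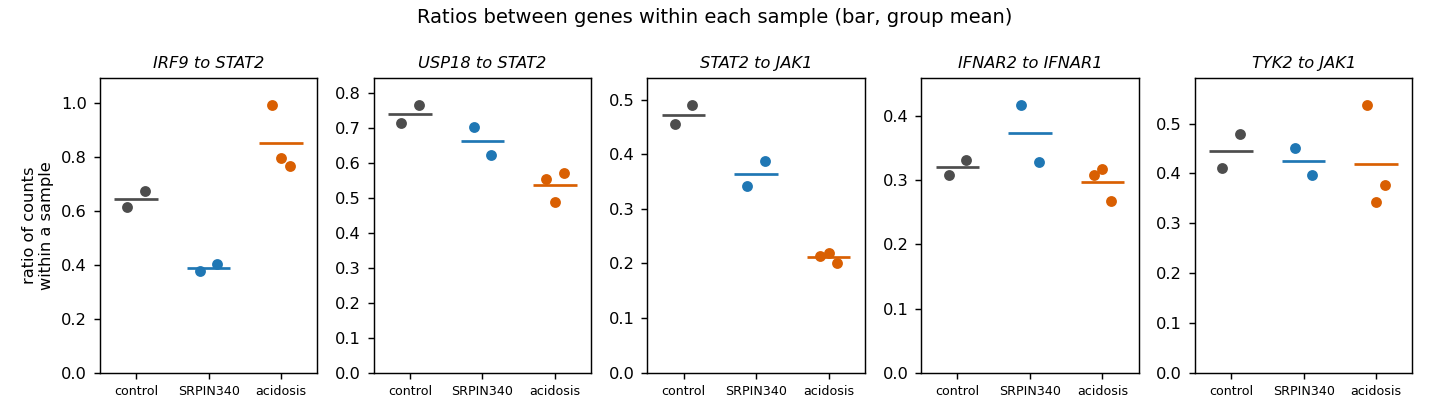
Ratio of deposited counts between 2 genes within each sample, on linear axes from 0, with 1 point per sample and a bar at the group mean. IRF9 to STAT2 is lowest with SRPIN340 and highest in acidosis, STAT2 to JAK1 steps down to 0.201 to 0.220 in acidosis, and the 2 ratios on the right overlap between control and each treatment.

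**Figure D4:**
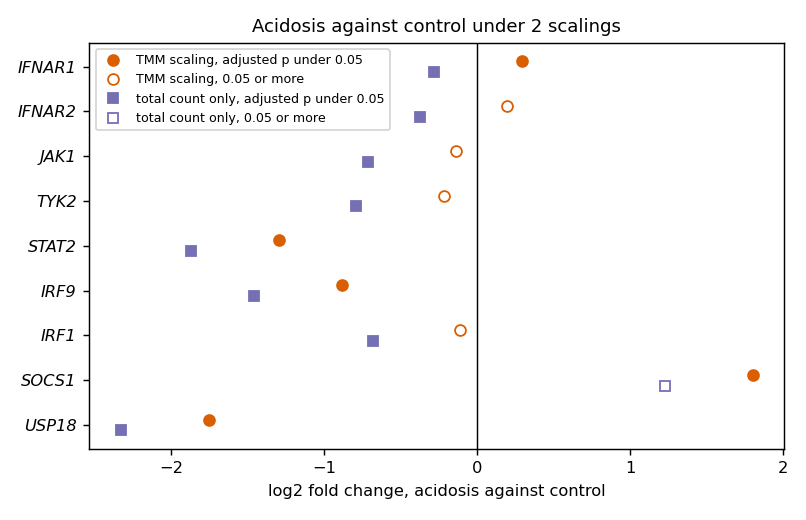
Log2 fold change of each of the 9 genes in acidosis against control, under TMM scaling and under scaling by library total alone, filled where the adjusted p was under 0.05. Total-count scaling moves each gene to the left, so that IFNAR1 and IFNAR2 cross 0, while STAT2, IRF9 and USP18 stay below 0 and SOCS1 above it.

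No gene of the 9 was called in both comparisons with control, so by the rule on likeness genes were compared with IRF9, which had the smallest adjusted p of the 9 with SRPIN340. Over the 7 samples and 11404 genes of at least 5 CPM on average, the log2 levels of IRF7, HNRNPAB and MRI1 followed IRF9 most closely, with Pearson r of 0.989, 0.966 and 0.959. The points of each r share the libraries and their scaling, and it is a description only. IRF7, the factor that amplifies type I interferon production and itself a target of ISGF3, was at 22.0 and 23.2 CPM in control, 6.04 and 7.25 CPM with SRPIN340, and 9.98, 7.90 and 8.68 CPM in acidosis. Its 3 groups did not overlap on this scale, whereas the treated groups of IRF9 did. HNRNPAB and MRI1 varied over a much smaller range, with group means from 363 to 426 CPM and from 25.7 to 29.2 CPM.

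The rest of the pathway was described by 10 further lists, written with earlier results of these data known. Among all tested genes, 19.1% were called lower and 14.4% higher in acidosis, and 0.195% and 0.128% with SRPIN340. Counts in a small list near these shares are no result about its genes. Of 22 interferon genes (type I, II and III ligands), 0 passed the filter and 16 had no counts in any sample. The highest value was 8.17 counts, of IFNB1 in 1 sample, and the ligands summed to 0.296 to 0.714 CPM in control, 0.198 to 0.451 CPM with SRPIN340 and 0 to 0.543 CPM in acidosis. Transcripts of the ligands were therefore close to the detection limit in all conditions.

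Receptors of the other interferon types held larger differences in acidosis than the type I receptor, without a test between them. IFNGR2 and IFNGR1, the chains of the type II receptor, rose from 59.7 ± 1.69 to 146 ± 0.694 CPM and from 41.6 ± 1.94 to 101 ± 4.71 CPM (SD, n = 2 and n = 3), with log2 fold changes of 1.29 and 1.27 (edgeR adjusted p = 3.97e-07 and 1.19e-06). With total-count scaling these were 0.71 and 0.70. IFNLR1, the specific chain of the type III receptor, was also called higher, and its partner IL10RB was called lower (log2 fold change -1.28). Both were named after their values were seen. With total-count scaling IFNLR1 was at 0.61, and of these 4 genes 0 were called higher and 1 lower. With SRPIN340 0 of these 4 genes passed edgeR's test, with log2 fold changes from 0.0005 to 0.25.

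Of the 6 STAT genes besides STAT2, 3 were called lower in acidosis and 1 higher, STAT5B, a STAT of growth hormone and cytokine signalling (log2 fold change 1.06). STAT5B was no longer called with total-count scaling (log2 fold change 0.49). The 2 further JAK kinases were not called in acidosis, and JAK2 passed lower (log2 fold change -0.89, edgeR adjusted p = 0.00107).

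Of 10 other IRF and IRF2-binding genes, 1 was called lower in acidosis, IRF7 (log2 fold change -1.34, edgeR adjusted p = 4.20e-05), and 2 higher. The higher ones were IRF2BPL and IRF2BP2, which encode partners of IRF2 and not IRFs, with log2 fold changes of 2.01 and 1.73. IRF7 was also the 1 gene of this list called with SRPIN340 (log2 fold change -1.76, edgeR adjusted p = 0.0023). Its levels in acidosis were above those with SRPIN340 by a log2 difference of 0.42 (edgeR adjusted p = 0.0477). That difference depends on the scaling. Total-count scaling turned the like difference of IRF9 from 0.244 to -0.37, and its value for IRF7 is not given here.

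Of the 7 other SOCS family genes, 3 were called higher in acidosis and 0 lower. These were SOCS4, SOCS5 and SOCS3, of which the last, the inhibitor of IL-6 type receptors, was named after its values were seen. SOCS4 went from 52.4 ± 6.57 to 199 ± 18.2 CPM (SD, n = 2 and n = 3) and SOCS3 from 1.74 ± 0.421 to 11.8 ± 2.77 CPM. The list's median log2 fold change was 0.802, and 0.228 with total-count scaling, under which 2 were called higher and 1 lower. Of 9 PIAS and phosphatase genes, 3 were called lower and 1 higher in acidosis, against 19.1% and 14.4% of all tested genes. PIAS2 fell by 1.15 on the log2 scale. The gene called higher was PTPN11, at the fold limit (log2 fold change 1.00) and at 0.43 with total-count scaling. Of 20 receptors outside the interferon family that use JAK kinases, 16 passed the filter, and acidosis gave 2 lower and 3 higher calls. Such counts are near the shares over all tested genes and are no result about the list. IL6R rose from 17.5 ± 0.911 to 205 ± 11.9 CPM (SD, n = 2 and n = 3), a log2 fold change of 3.55, and to 32.8 ± 2.73 CPM (SD, n = 2) with SRPIN340 (log2 fold change 0.90, edgeR adjusted p = 0.00438). The median of these receptors turned from 0.230 to -0.341 with total-count scaling, and that of the PIAS and phosphatase list from 0.115 to -0.460.

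The targets of ISGF3 were the list with the most calls. All 30 such genes passed the filter. Calls were made for 26 of them in acidosis and for 16 with SRPIN340, all in the lower direction. Over all tested genes, 19.1% were called lower in acidosis and 0.195% with SRPIN340. The 1 gene of the list that was not lower in acidosis was ISG20 (log2 fold change 0.86, edgeR adjusted p = 0.0577). Their median was a log2 fold change of -2.31 in acidosis and -1.37 with SRPIN340, beside -0.0518 and 0.0024 over all tested genes. PARP9, a target that encodes an ADP-ribosyltransferase family protein, went from 75.1 ± 7.31 CPM in the control samples to 42.9 ± 1.74 CPM under SRPIN340 and 9.14 ± 1.12 CPM in acidosis (each with SD, n = 2, 2 and 3). Targets of IRF1 and of interferon-gamma were mixed, with 5 of 17 tested genes called lower and 1 higher in acidosis, and 0 called or passing with SRPIN340 under edgeR. Among them LAP3, an aminopeptidase gene, fell by 1.24 on the log2 scale, and NLRC5, an activator of MHC class I genes, rose by 1.44, or by 0.87 with total-count scaling.

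**Figure D5:**
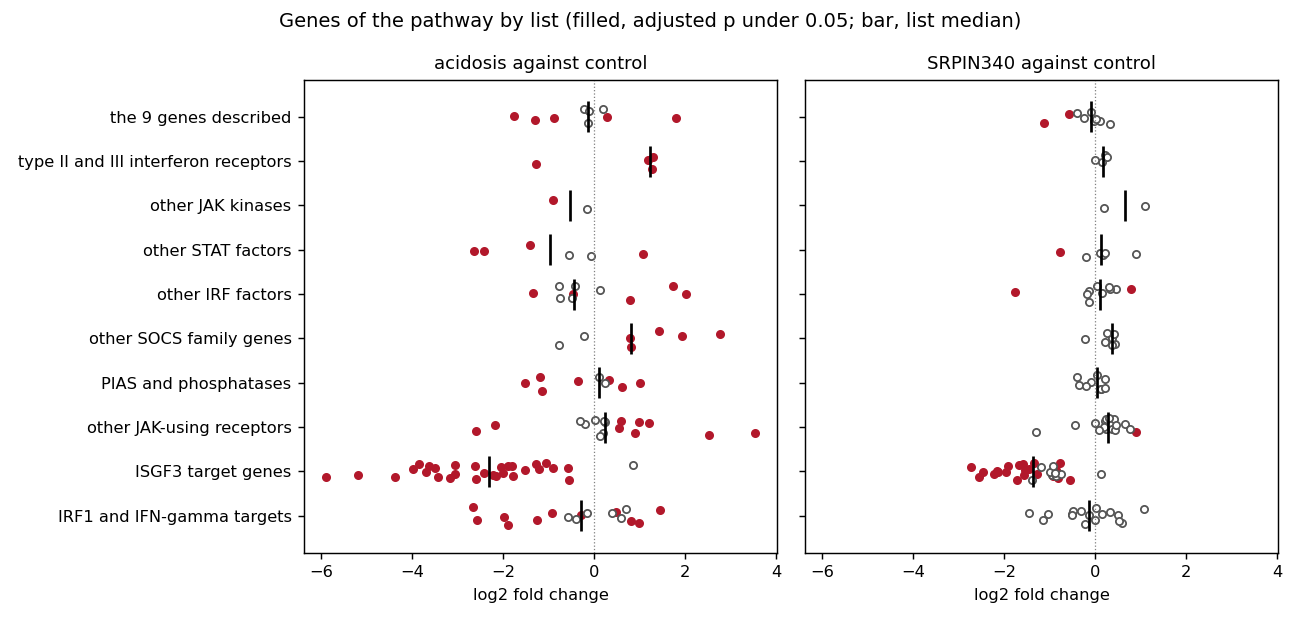
Log2 fold changes of the tested genes of each list in acidosis (left) and with SRPIN340 (right) against control, filled where the adjusted p was under 0.05, with a bar at each list's median. The ISGF3 targets lie furthest to the left in both panels, with medians of -2.31 and -1.37, while the medians of the 9 genes described are -0.139 and -0.0963.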

How the data were processed

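RNA of 7 HEK-293 samples was measured by poly(A)-selected sequencing. The authors trimmed the reads (Trimmomatic 0.39, Trim Galore 0.6.6), quantified transcripts with Salmon 1.5.1 on a Gencode GRCh38.p13 transcriptome and deposited estimated counts per gene from tximport, not normalized between samples; the tximport option and strand setting were not given in the sources used here. Symbols were taken from GENCODE by Ensembl identifier (19977 of 19978 matched).

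Counts were rounded and tested with edgeR 4.0.16 (R 4.3.3; quasi-likelihood, TMM, filterByExpr) in 1 fit of all 7 samples, with Benjamini-Hochberg adjustment over 14863 genes. Standard errors and 95% intervals come from the test statistic. The study's tool, DESeq2 1.42.0, was an alternative, as were the scaling, the filter, the samples fitted, a replicate block, the fold limit and leaving out each sample. Both tools were tested on simulated counts. Replicate pairs differed by more than sampling noise (chi-square per gene 6.968 to 12.44). The methods call the samples biological repeats, each sequenced in replicates, and the deposited counts hold 1 column per sample. How those replicates were combined is not known.

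The 9 genes, the lists and the naming rule (the 9 genes, the 2 listed genes with the smallest adjusted p in acidosis, any listed gene called with SRPIN340, and likeness to a gene called in both comparisons or, with none, to that with the smallest adjusted p with SRPIN340) were chosen with earlier results of these data known. The lists were the ligands, receptors of types II and III, JAKs, STATs, IRFs, SOCS genes, PIAS and phosphatases, other JAK-using receptors, ISGF3 targets, IRF1 targets and cell markers. Ratios were compared with exact permutation tests (scipy 1.17.1). Gene lengths were not used, so levels are not compared between genes. Some genes of the lists are not reported here by name.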

Additional observations from a re-analysis of the deposited data

How the results depend on the processing

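The 9 genes gave 27 fitted changes, and 375 alternative values of them kept direction and side of the threshold in 325 cases, fell below it in 19, rose past it in 13 and turned in 18. The falls of STAT2, IRF9 and USP18 in acidosis passed under every alternative run. The gene called higher in acidosis (1 in the report) became 0 with total-count scaling, with a mean of at least 5 CPM (SOCS1 was not tested there) and with the replicate block, 2 with no fold limit, and 0 to 1 without 1 sample. Higher against SRPIN340 it was 0 with the 5 CPM limit and 0 to 1 without 1 sample, and lower against SRPIN340 it was 2 with total-count scaling or no fold limit in place of 1. Lower with SRPIN340 it was 2 with no fold limit in place of 1, and 0 to 1 without 1 sample. In a fit that leaves 1 sample in a group, that sample is assumed to vary like the others. Over all genes, total-count scaling gave 815 higher and 5202 lower calls in acidosis in place of 2145 and 2840, and 775 and 5505 in place of 2213 and 2935 against SRPIN340. With SRPIN340 the calls were 5 higher with the block and 33 higher in a fit of those groups alone, in place of 19. Without 1 sample they were 3 to 30 higher and 8 to 36 lower in place of 19 and 29. The lowest were 3 higher and 8 lower without SRPIN340 replicate 1, 3 and 23 without control replicate 2, 6 and 18 without SRPIN340 replicate 2, and 9 and 20 without control replicate 1, and the highest were 30 and 36 without acidosis replicate 2.

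Total-count scaling turned IFNAR1 to -0.282 in acidosis and -0.438 against SRPIN340, IFNAR2 to -0.376 in acidosis, IRF9 to -0.37 against SRPIN340 and JAK1 to 0.006 with SRPIN340. With 1 sample left out, the log2 fold changes that turned ranged, with SRPIN340, from -0.002 (without control replicate 2) to 0.241 for IFNAR1, from -0.105 to 0.037 (without control replicate 1) for JAK1, from -0.212 to 0.012 (without SRPIN340 replicate 2) for TYK2, from -0.954 to 0.24 (without SRPIN340 replicate 2) for SOCS1, and from -0.48 (without SRPIN340 replicate 1), through -0.168 (without control replicate 2), to 0.385 for IRF1. In acidosis IRF1 ranged from -0.311 to 0.094 (without control replicate 1) and was 0.009 without acidosis replicate 3. Against SRPIN340, IRF1 ranged from -0.5 to 0.365 (without SRPIN340 replicate 1) and TYK2 from -0.326 to 0.021 (without acidosis replicate 2). With the replicate block IRF1 was 0.018 in acidosis, -0.015 with SRPIN340 and 0.033 against SRPIN340. Of the turned values, IFNAR1 in acidosis had passed in the report, and the cause was not tested.

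Deviations from the group mean in samples with the same repeat number had correlations from -0.235 to 0.115. In a group of 2 samples these deviations mirror each other, so the check cannot decide whether such samples were handled together. With the replicate block SOCS1 and IFNAR1 in acidosis and USP18 with SRPIN340 missed the threshold (adjusted p = 0.0507, 0.0589 and 0.113 from edgeR). Depth limits SOCS1, whose samples held 5.34 to 26.5 counts, and the interferon genes.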
